A study of Mus musculus with 12 samples.

Results

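Brains of mice given conduritol B epoxide (CBE) were compared between postnatal day 40 and postnatal day 34. These are 4 of the 12 samples of the series, chosen by their labels, with 2 at day 40 (CBE replicates 4 and 6) and 2 at day 34 (CBE replicates 2 and 3). All samples were homogenates of whole brain from C57BL/6 mice, profiled with a bulk version of MARS-seq, a method that counts tags from the 3′ ends of transcripts. The other groups were PBS, the vehicle control, and CBE given together with GZ-667161, with 4 samples each, all of day 40. GZ-667161 is an inhibitor of glucosylceramide synthase that enters the brain. Dose, route, schedule and sex are not in the labels, nor do they state that every sample came from its own mouse. The p-values therefore rest on differences between samples, some of which may be technical. The 2 ages differ in days of life and, since CBE was given to both, possibly in length of exposure, which the labels do not state. None of the 12 samples is a PBS sample of day 34, so age and treatment cannot be told apart in any difference between the 2 days.

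CBE blocks the breakdown of the lipid glucosylceramide in lysosomes. This lipid builds up in the brain in neuronopathic Gaucher disease, in which neurons die and microglia and astrocytes become reactive. Interferon-stimulated genes, chemokines and complement are known to rise in this model as it progresses. Glucocorticoids, the adrenal hormones released under stress, act through a nuclear receptor that raises a well known set of transcripts in brain cells, Fkbp5 among them.

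Total counts were 1841257 and 1758446 in the day 34 samples, the lowest of the 12, and 3003757 and 3051435 at day 40, and the highest of the other 8 was 6521257. All 4 CBE samples had at most 0.555 CPM (counts scaled to a common library total) of Xist and 24 to 27 counts of Y-linked genes, so the 2 days did not differ in these sex-linked transcripts. The other groups were mixed. Xist measured 7.96 and 18.3 CPM in PBS replicates 4 and 5 and 25.7, 13.9 and 11.1 CPM in CBE+GZ-667161 replicates 2, 3 and 5, each with 0 or 1 Y-linked counts. PBS replicates 2 and 3 and CBE+GZ-667161 replicate 4 had at most 0.419 CPM of Xist. Sex may thus differ between CBE and these groups. Day 40 replicate 6 stood apart from the other 3 CBE samples in genes of striatal neurons. The mean of 16 such genes lay at 6.92 on a log2 CPM scale in replicate 6, against 4.32 in day 40 replicate 4 and 4.35 and 4.44 at day 34. PBS replicate 3 and CBE+GZ-667161 replicate 3 were high in the same genes (7.02 and 6.98), while the other 9 of the 12 samples lay at 4.997 or below. Day 40 replicate 4 stood apart in Ttr, the transthyretin gene that marks choroid plexus, with 517 CPM against 56.0 in replicate 6 and 124 and 92.8 at day 34. Results are therefore also given without single libraries.

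**Figure D1:**
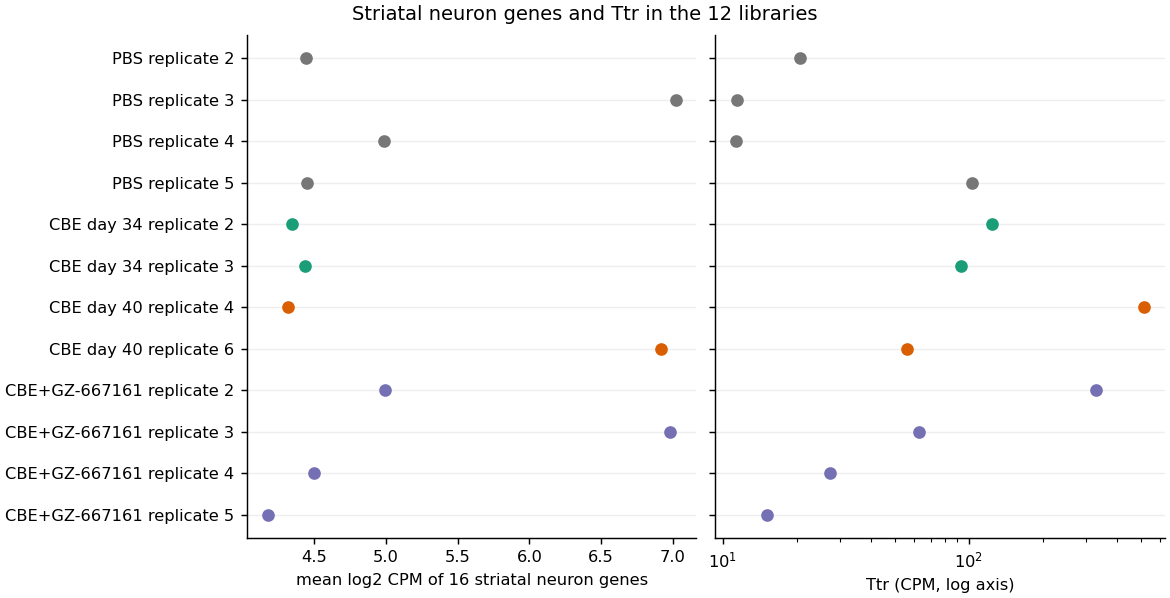
Left, the mean log2 CPM of 16 striatal neuron genes, and right, Ttr in CPM on a log axis, with 1 point for each of the 12 libraries coloured by group. The striatal genes lie at 6.92 in CBE day 40 replicate 6, near 2 libraries of other groups, and Ttr is highest, at 517 CPM, in CBE day 40 replicate 4.

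Between the days 84 of 12623 tested genes passed (edgeR quasi-likelihood test, adjusted p under 0.05), which is 0.665% of all. Of these, 33 were higher at day 40 (0.261% of all genes) and 51 lower (0.404%), and 19 and 37 of them differed by more than 2-fold. In all 84 the 2 samples of one day lay on the same side of both samples of the other day. Among all genes the days were separated in this way upwards in 24.4% and downwards in 23.7%, so on its own it sets no gene apart. These shares of calls and of separated genes are the background for every list below. Lists and members were chosen with earlier results of these data known. Setting a list beside this background therefore describes it and is no independent test of it. A single passing member of a list is given as a gene, without a reading of its list. The median log2 fold change over all genes was 0.0005, and 1957 genes had an unadjusted p under 0.05. The calls depend on every one of the 4 CBE samples. Without day 34 replicate 2, day 34 replicate 3, day 40 replicate 4 and day 40 replicate 6 in turn, edgeR called 9, 0, 0 and 13 genes, with 1745, 1294, 1425 and 1857 at an unadjusted p under 0.05. Of the 41 passing genes that the naming rule took, 5, 0, 0 and 5 kept their call in these fits, in which a lone sample is assumed to vary like the other groups. As the days do not overlap in any of the 84, the direction is fixed in these fits and adds no support. Each of the 84 calls is lost without day 34 replicate 3 and without day 40 replicate 4, where the adjusted p of the 41 ran from 0.144 to 0.321 and from 0.0519 to 0.283.

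**Figure D2:**
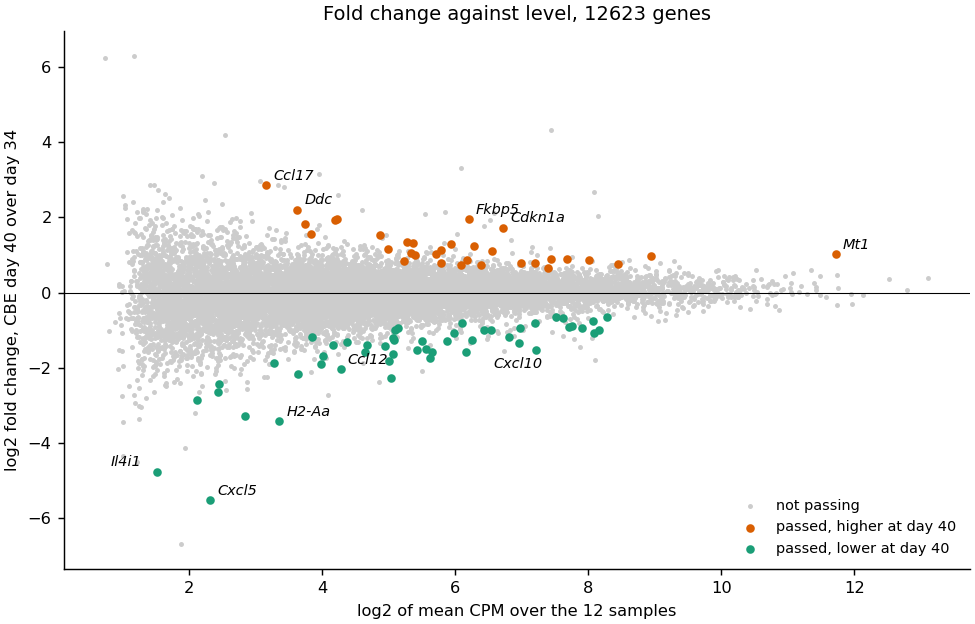
Log2 fold change of day 40 over day 34 against the log2 of the mean CPM over 12 samples, with 1 point per tested gene and the 84 genes that passed in colour. The 33 higher genes include Fkbp5 and Mt1, and the 51 lower genes include Cxcl5, H2-Aa and Ccl12.

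Among genes that respond to glucocorticoids Fkbp5, Cdkn1a, Sult1a1, Mt1 and Htra1 rose. Of 25 tested members 5 passed upwards and 0 downwards, against 0.261% and 0.404% of all genes. The median log2 fold change of the list was 0.80, against 0.0005 for all genes, and 17 members lay above both day 34 samples in both day 40 samples, with 1 below. By unadjusted p under 0.05, 13 members were higher and 0 lower, against 7.56% and 7.95% of all genes, and 5 members had values below 0. The summed level of the list was 10307 and 7980 CPM at day 34 and 15883 and 16476 CPM at day 40. Mt1 and Mt2 held most of this sum, and the other 23 members summed to 1513 and 1244 CPM at day 34 and 2446 and 2493 CPM at day 40. With all 25, PBS samples lay between 3903 and 4626 CPM and CBE+GZ-667161 samples between 4700 and 5946 CPM. For the 23 members without Mt1 and Mt2, PBS samples lay between 1114 and 1364 CPM and CBE+GZ-667161 samples between 1050 and 1342 CPM. In this smaller sum day 34 replicate 3 lay within both ranges, and day 34 replicate 2 and both day 40 samples lay above them.

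Fkbp5, which encodes a co-chaperone that dampens the glucocorticoid receptor (mm10 chromosome 17, 28399094 to 28517527), measured 70.6 and 44.4 CPM at day 34 and 226 and 218 CPM at day 40. PBS samples lay between 36.9 and 42.9 CPM and CBE+GZ-667161 samples between 29.5 and 55.2. Thus both day 40 samples stood above each of the other 10 samples, and day 34 replicate 3 lay within the range of CBE+GZ-667161. The log2 fold change was 1.95 ± 0.25 (SE, edgeR adjusted p = 0.00535). It passed without day 34 replicate 2 and without day 40 replicate 6 (adjusted p = 0.0157 and 0.0208). Without day 34 replicate 3 or day 40 replicate 4 it did not (adjusted p = 0.144 and 0.0519).

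Cdkn1a encodes p21, an inhibitor of the cell cycle that p53 and glucocorticoids both raise (chromosome 17, 29090976 to 29100727). It measured 63.1 and 72.2 CPM at day 34 against 213 and 232 at day 40 (log2 fold change 1.72 ± 0.25, edgeR adjusted p = 0.00983). All 4 PBS samples, at 69.4 to 121 CPM, and all CBE+GZ-667161 samples, at 61.5 to 99.2, lay below the day 40 samples. Of 15 tested genes of p53 and cell death Cdkn1a alone passed, and the median of that list was -0.27, or 0.00073 without day 40 replicate 4 and -0.11 without day 34 replicate 2. Sult1a1, which encodes a sulfotransferase for phenols and catecholamines, went from 30.2 and 27.2 CPM to 69.3 and 95.03 (1.52 ± 0.25, edgeR adjusted p = 0.0184). It overlaps the protein-coding gene Sgf29, and the sources used here do not tell if tags were assigned by strand.

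Mt1, a metallothionein gene whose product binds zinc and copper, is induced by metals and by glucocorticoids. It measured 4330.1 and 3393 CPM at day 34 and 7739 and 7899 CPM at day 40, a log2 fold change of 1.02 ± 0.15 (edgeR adjusted p = 0.00983). PBS samples lay at 1762 to 2047 CPM and CBE+GZ-667161 samples at 2150.3 to 2730.3, so every CBE sample was above every sample of both other groups. Its neighbour Mt2, a close copy in sequence, went from 4464 and 3343 to 5699 and 6084 CPM and did not pass (0.59 ± 0.19, edgeR adjusted p = 0.160). Of 17 metallothionein and antioxidant genes Mt1 was the one that passed, and the median of that list was 0.06, with a range of -0.05 to 0.08 over the alternative fits. The promoter of Mt1 (GRCm38.p6, chr8:94178839-94179138, plus strand, RefSeq) is shown because metals and glucocorticoids induce this gene. Capitals mark 3 matches to the metal response element core TGCACNC or TGCGCNC and 1 to the glucocorticoid response element core ACANNNTGT, on either strand. The metal cores begin at -23, 3 and 21 from the start used and the glucocorticoid core at -92. Whether any of them is an element the gene uses was not tested.
Mt1: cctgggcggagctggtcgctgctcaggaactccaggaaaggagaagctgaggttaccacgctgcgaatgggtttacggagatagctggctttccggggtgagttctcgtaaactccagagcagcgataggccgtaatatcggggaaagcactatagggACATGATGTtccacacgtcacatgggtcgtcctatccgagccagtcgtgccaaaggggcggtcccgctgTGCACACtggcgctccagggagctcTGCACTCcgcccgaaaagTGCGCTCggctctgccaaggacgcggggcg
Of 32851 promoters of 300 bases, 25.7% hold the metal core and 6.85% the glucocorticoid core. Among the 23 glucocorticoid-responsive genes with a promoter in the table, 5 hold the glucocorticoid core. Such a match describes the sequence and shows no binding.

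Htra1, which encodes a secreted serine protease (chromosome 7, 130936111 to 130985660), rose from 229.6 and 188 to 368 and 388 CPM (0.86 ± 0.13, edgeR adjusted p = 0.0163). Sgk1, a kinase gene induced by glucocorticoids, measured 169 and 129 CPM at day 34 and 235 and 254 at day 40 (0.71 ± 0.16, adjusted p = 0.0585). Tsc22d3, which encodes the mediator GILZ, measured 77.1 and 53.9 against 112 and 122 CPM (adjusted p = 0.0806). Neither passed, although their 2 days did not overlap. Per1 and Dusp1, also induced by glucocorticoids, had log2 fold changes of -0.31 and -0.15 (adjusted p = 0.737 and 0.901), with overlap between the days. Without each of the 4 CBE samples in turn its median ran from 0.60 to 0.82. In those fits 3, 0, 0 and 1 members passed, in the order day 34 replicates 2 and 3 and day 40 replicates 4 and 6.

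**Figure D3:**
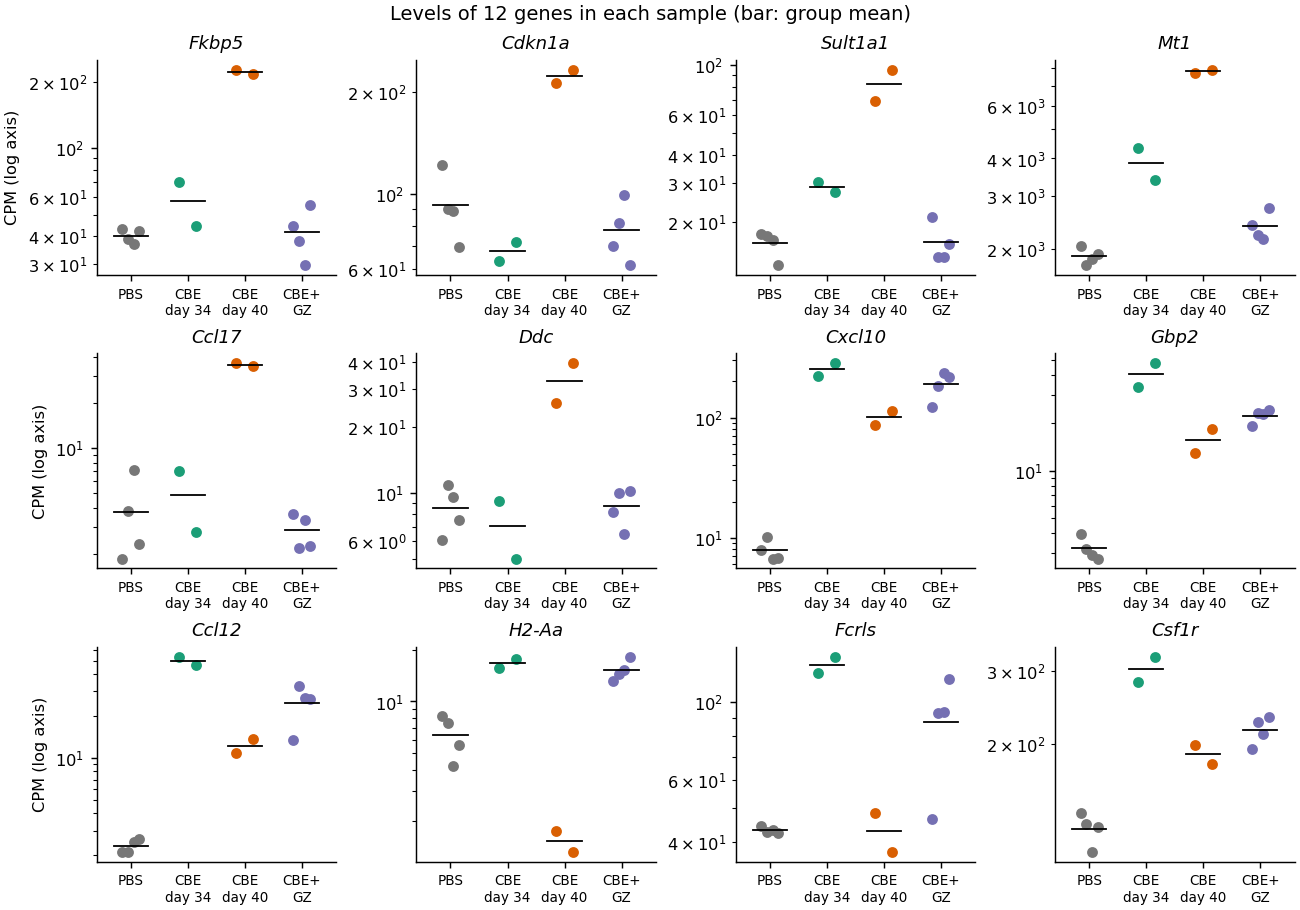
CPM on a log axis of 12 genes in every sample of the 4 groups (GZ stands for GZ-667161), with a bar at each group mean. The 2 CBE day 40 samples lie above all others for Fkbp5, at 226 and 218 CPM, and below all others for H2-Aa, at 1.75 and 1.32 CPM.

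The largest rise among passing genes was that of Ccl17, a chemokine gene that draws T cells and is made by dendritic cells and some neurons (chromosome 8, 94810453 to 94812036). It measured 7.01 and 2.78 CPM at day 34 and 36.4 and 34.8 CPM at day 40 (log2 fold change 2.85 ± 0.52, edgeR adjusted p = 0.0292). PBS and CBE+GZ-667161 samples lay between 1.85 and 7.12 CPM. Ddc encodes aromatic L-amino acid decarboxylase, the last enzyme in the synthesis of dopamine and serotonin (chromosome 11, 11814101 to 11898144). It went from 9.16 and 4.999 to 25.9 and 39.4 CPM (2.20 ± 0.39, edgeR adjusted p = 0.0248), with 6.09 to 10.8 CPM in PBS and CBE+GZ-667161 samples. In both genes the 2 day 40 samples stood above all 10 others.

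Arrdc4, an arrestin-related gene that responds to glucose, went from 17.2 and 11.7 to 65.1 and 46.4 CPM (1.94 ± 0.35, edgeR adjusted p = 0.0292). Igfbp3, which encodes a carrier of insulin-like growth factors, went from 8.08 and 14.4 to 28.4 and 37.4 CPM (1.55 ± 0.31, edgeR adjusted p = 0.0374). Mfsd2a encodes the transporter that carries lysolipids with docosahexaenoic acid across the blood-brain barrier, and it rose from 49.6 and 43.9 to 125 and 102 CPM (1.28 ± 0.22, edgeR adjusted p = 0.0215). PBS samples lay at 43.7 to 66.0 CPM for Mfsd2a. The other large rises were Gm5914, 2810029C07Rik, Cited4 and Spsb3, with log2 fold changes of 1.93, 1.82, 1.35 and 1.31. Gm5914 lies in a stretch that also holds Agrp and Ctcf. Cry2, which encodes a repressor of the circadian clock, rose from 165 and 160 to 335 and 272 CPM (0.90 ± 0.16, edgeR adjusted p = 0.0248). It was the one of 18 clock genes to pass. The clock genes Per1, Per2 and Nr1d1 measured -0.31, -0.56 and 0.03 on the log2 scale. Of the 18 members 13 had values above 0 and 5 below, and the list median was 0.22. It came to 0.02 without day 40 replicate 4 and to 0.08 without day 34 replicate 3.

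Among interferon-stimulated genes Cxcl10 and Gbp2 fell, and most other members had values below 0 without passing. Of 41 tested members 2 passed downwards and 0 upwards, against 0.404% and 0.261% of all genes. The median log2 fold change was -0.97, with 40 members below 0 and 1, Mx1 (0.38 ± 0.57, adjusted p = 0.794), above. Both day 40 samples lay below both day 34 samples in 37 of 41 members, against 23.7% of all genes, and 31 were lower at an unadjusted p under 0.05, against 7.95%. The summed level was 2819 and 3770 CPM at day 34 and 1390.1 and 2248 CPM at day 40. PBS samples lay at 359 to 409 CPM, so the day 40 samples stayed above every PBS sample, and CBE+GZ-667161 samples lay at 1672 to 2707 CPM. Day 40 replicate 4, the sample with the most Ttr, was lower than replicate 6, and without it the median was -0.61. Without day 34 replicates 2 and 3 and day 40 replicate 6 it was -1.14, -0.74 and -1.39, and in each of the 4 fits 0 members passed by edgeR.

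Cxcl10 (chromosome 5, 92346638 to 92348889), whose chemokine product draws activated T cells, measured 222 and 284 CPM at day 34 and 87.5 and 114 CPM at day 40. PBS samples lay between 6.70 and 10.2 CPM and CBE+GZ-667161 samples between 123 and 233. Both day 40 samples therefore lay below all day 34 and CBE+GZ-667161 samples and above all PBS samples. The log2 fold change was -1.33 ± 0.26 (edgeR adjusted p = 0.0324), and the gene overlaps Art3. Gbp2, which encodes a guanylate-binding protein of interferon-activated cells (chromosome 3, 142620602 to 142638008), went from 34.0 and 47.8 to 12.96 and 18.2 CPM (-1.39 ± 0.26, edgeR adjusted p = 0.0304). Its PBS samples lay at 2.77 to 3.97 CPM.

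The promoters of both genes are printed because each holds the interferon-stimulated response element GAAANNGAAA once, in capitals, on either strand. They are GRCm38.p6, chr5:92348840-92349139 on the minus strand for Cxcl10 and chr3:142620413-142620712 on the plus strand for Gbp2, from RefSeq.
Cxcl10: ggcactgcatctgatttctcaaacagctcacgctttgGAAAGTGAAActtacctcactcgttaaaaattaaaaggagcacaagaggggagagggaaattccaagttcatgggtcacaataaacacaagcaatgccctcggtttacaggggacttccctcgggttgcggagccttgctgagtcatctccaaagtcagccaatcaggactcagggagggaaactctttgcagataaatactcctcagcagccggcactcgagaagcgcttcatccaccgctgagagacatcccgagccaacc
Gbp2: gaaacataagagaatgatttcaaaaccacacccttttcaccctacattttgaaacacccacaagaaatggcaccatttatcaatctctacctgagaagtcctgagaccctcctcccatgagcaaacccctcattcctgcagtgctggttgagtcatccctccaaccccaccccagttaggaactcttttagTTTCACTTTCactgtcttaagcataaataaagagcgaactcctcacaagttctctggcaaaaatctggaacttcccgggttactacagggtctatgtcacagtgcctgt
The element occurs in 3.44% of all promoters of the same length. It is present in 20 of the 28 interferon-stimulated genes with a promoter in the table, in 3 of 70 genes that passed between the days, and in 1 of 23 glucocorticoid-responsive genes.

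Other interferon-stimulated genes were lower without passing. Isg15, which encodes a ubiquitin-like protein, measured 196 and 287 CPM at day 34 and 79.1 and 136 at day 40 (-1.16 ± 0.28, adjusted p = 0.0685). Ifi27l2a measured 202 and 279 against 61.6 and 101 CPM (-1.56, adjusted p = 0.0884). Irf7, the master regulator of type I interferon, measured 188 and 261 at day 34 and 125 and 248 at day 40. Here the days overlapped (-0.26 ± 0.34, adjusted p = 0.759).

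Of the 16 tested members of the chemokine and cytokine list 2 passed downwards, Ccl12 and Cxcl10, and 0 upwards. Of all genes 0.404% passed downwards and 0.261% upwards. The median of the list was -0.73. The list does not hold Ccl17, which rose (above), or Cxcl5, so passing chemokine genes lay in both directions. Ccl12, which encodes a ligand of the monocyte receptor CCR2, fell from 53.4 and 46.7 to 10.9 and 13.6 CPM (-2.03 ± 0.34, edgeR adjusted p = 0.0196). PBS samples lay at 2.12 to 2.62 CPM and CBE+GZ-667161 samples at 13.4 to 32.7. Its near neighbour Ccl2 measured 33.4 and 20.6 against 7.70 and 14.2 CPM (adjusted p = 0.211). Ccl3 and Ccl5, chemokines of activated microglia and T cells, measured 0.50 and -0.14 on the log2 scale (adjusted p = 0.541 and 0.873), and so lay apart from the list median. Cxcl5, which encodes a neutrophil attractant, had 63 counts at day 34 and 2 at day 40. The ratio of day 34 to day 40 was 50.6 with a 95% counting interval of 13.5 to 427, at 16.7 and 17.8 CPM against 0.700 and 0 (edgeR adjusted p = 0.0388). Il4i1, an amino acid oxidase gene of macrophages and B cells, had 20 counts against 1, a ratio of 32.1 (5.14 to 1332, edgeR adjusted p = 0.0373). It overlaps Atf5, Nup62 and Tbc1d17. These intervals cover counting error only, pooled over the 2 samples of a day. Without any 1 of the 4 CBE samples 0 of the 16 list members passed by edgeR.

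Among antigen presentation genes 2 of class II fell, and none of class I passed by edgeR. H2-Aa, which encodes an α chain of the class II complex that shows peptides to helper T cells (chromosome 17, 34282744 to 34287823), measured 15.6 and 17.8 CPM at day 34 and 1.75 and 1.32 CPM at day 40. PBS samples lay at 4.19 to 8.20 CPM and CBE+GZ-667161 samples at 13.2 to 18.3, so the day 40 samples were the lowest of the 12. The log2 fold change was -3.42 ± 0.43 (edgeR adjusted p = 0.00535). It rested on 61 counts at day 34 and 9 at day 40, and passed without day 34 replicate 2 and without day 40 replicate 6 (adjusted p = 0.0251 and 0.0491). H2-Eb1, its class II partner, went from 10.8 and 12.8 to 0.350 and 1.99 CPM (-3.27 ± 0.71, edgeR adjusted p = 0.0477), on 43 counts at day 34 and 7 at day 40. H2-Ab1 and Cd74, of the same pathway, measured 12.4 and 18.9 against 4.20 and 7.28 CPM and 22.1 and 27.2 against 9.80 and 13.6 CPM (adjusted p = 0.239 and 0.377). Class I genes H2-K1 and H2-D1 measured -0.17 and -0.14 on the log2 scale (adjusted p = 0.800 and 0.796). In all, 2 of 22 members passed downwards and 0 upwards, against 0.404% and 0.261% of all genes. The median was -0.58 (-0.38 without day 40 replicate 4), and 18 members were separated downwards, against 23.7% of all genes. The summed level of 3 tested markers of T, B and NK cells was 36.6 and 19.4 CPM at day 34 and 46.9 and 54.6 CPM at day 40. These are 3 of 18 listed markers, 2 with log2 fold changes above 0 and 1 at -1.75. Of markers too low to test, Nkg7 had 16 counts at day 34 and 5 at day 40. Cd79b had 10 and 7, Gzmb 5 and 0, Trbc1 5 and 1, Cd8a 4 and 2, Gzma 1 and 2, and Cd3d 0 and 0. These are raw counts, and the day 40 libraries held the larger totals. All untested markers with counts had fewer at day 40 except Gzma, while 2 of the 3 tested markers lay above 0. The part of such cells in these falls was not tested. Ighm, the immunoglobulin heavy chain gene of B cells, fell from 52.3 and 49.99 to 16.5 and 17.5 CPM (-1.59 ± 0.33, edgeR adjusted p = 0.0415), chosen after its values were seen. In bulk tissue fewer cells of a type and less RNA per cell cannot be told apart.

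Of the homeostatic microglia genes Fcrls, Itgam and Csf1r fell by day 40. Of 23 tested members 3 passed downwards and 0 upwards, against 0.404% and 0.261% of all genes. The median was -0.68, 2 members were above 0, and 19 were separated downwards, against 23.7% of all genes. Fcrls, a receptor gene particular to mouse microglia (chromosome 3, 87250758 to 87263738), went from 121 and 135 to 48.3 and 37.4 CPM (-1.58 ± 0.30, edgeR adjusted p = 0.0304). Its day 40 values lay near the PBS samples, at 42.5 to 44.4 CPM. Itgam, which encodes the integrin CD11b, went from 39.3 and 58.3 to 16.5 and 20.2 CPM (-1.41 ± 0.26, edgeR adjusted p = 0.0298), with PBS at 12.5 to 17.6. Csf1r encodes the receptor on which microglia depend for survival, and it went from 283 and 325 to 199 and 179.8 CPM (-0.68 ± 0.15, edgeR adjusted p = 0.0474). Here both day 40 samples stayed above the PBS samples, at 110.2 to 137 CPM. Csf1r lost its call without the filter on low counts and with Xist or the striatal level as a term. Fcrls and Itgam kept theirs in these 3 fits, while limma-voom called 0 members of the list. The summed level of the list was 10260 and 10948 CPM at day 34 and 8467 and 8047 CPM at day 40. It thus also stayed above the PBS samples, at 4912 to 5209 CPM. P2ry12 and Tmem119 measured 28.0 and 31.1 against 8.75 and 17.2 CPM and 78.7 and 142 against 59.2 and 53.6 CPM (adjusted p = 0.113 and 0.118). The list median lay between -0.78 and -0.63 over every alternative fit, and without any 1 of the 4 CBE samples 0 members passed by edgeR.

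Disease-associated microglia genes, which are switched on when microglia respond to damage, lay on both sides of 0. Of 30 tested members 0 passed by edgeR, while 11 had an unadjusted p under 0.05, 3 higher and 8 lower, and DESeq2 called 1 higher and 1 lower. The median was -0.25. Cst7, which encodes an inhibitor of cysteine proteases, measured 156 and 211 CPM at day 34 and 68.3 and 75.2 at day 40 (-1.35 ± 0.35, adjusted p = 0.0846). Lgals3, which encodes galectin-3, measured 119 and 98.3 against 267 and 247 CPM (1.24, adjusted p = 0.0850). Those 2 genes thus lay on opposite sides, and Apoe, at 10486 and 9519 CPM against 10938 and 9890, overlapped between the days (0.06 ± 0.15, adjusted p = 0.893). Among 11 complement genes Itgam was the one that passed. The genes of the C1q subunits, C1qa, C1qb and C1qc, measured -0.52, -0.27 and -0.36 on the log2 scale (adjusted p = 0.327, 0.586 and 0.448).

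**Figure D4:**
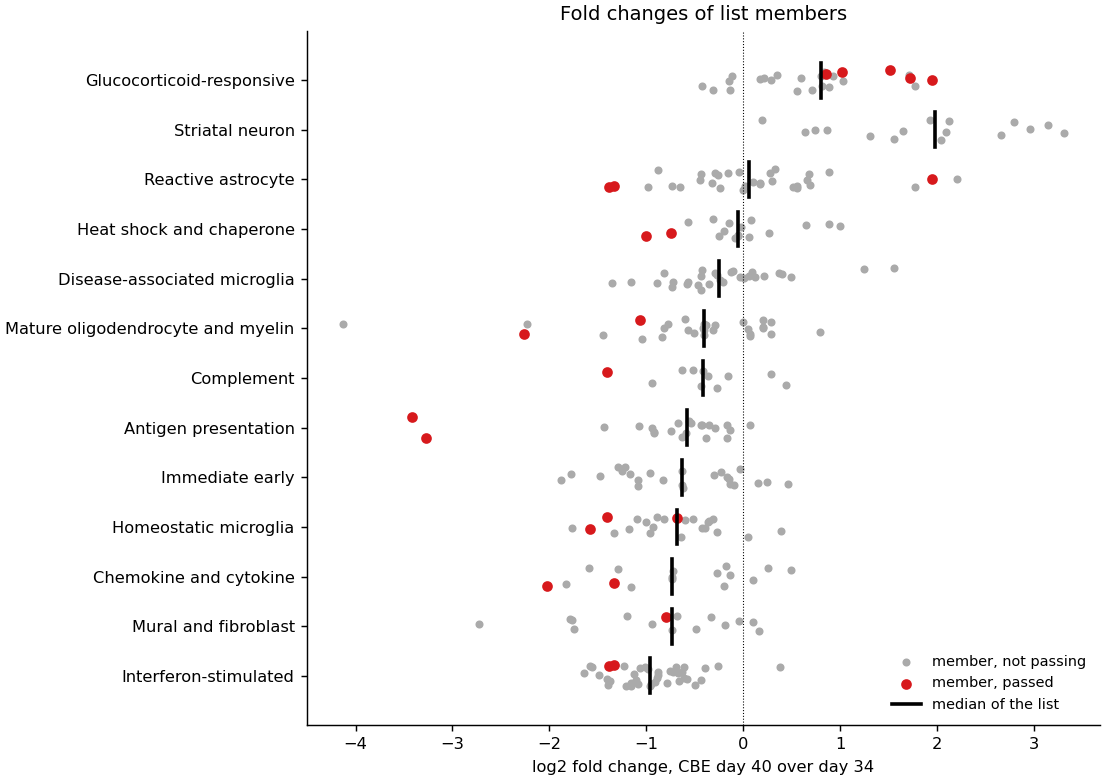
Log2 fold changes of day 40 over day 34 for the tested members of 13 gene lists, with 1 point per gene, red where the gene passed, and a black bar at the list median. The interferon-stimulated list has a median of -0.97 with 2 passing members, and the glucocorticoid-responsive list 0.80 with 5.

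Astrocyte genes were mixed. Of 32 reactive astrocyte genes 1 passed upwards (Fkbp5) and 2 downwards (Cxcl10 and Gbp2, both also interferon-stimulated), against 0.261% and 0.404% of all genes. The median was 0.06 (-0.02 to 0.12 over the alternative fits). Gfap, the intermediate filament gene of astrocytes, measured 911 and 1024 CPM at day 34 and 605 and 625 at day 40 (-0.65 ± 0.32, adjusted p = 0.347). Lcn2, which encodes lipocalin-2, measured 116 and 87.2 against 366 and 326 CPM (1.77 ± 0.55, adjusted p = 0.142), and Serpina3n 667 and 543 against 962 and 980.1 CPM (0.68 ± 0.38, adjusted p = 0.411). In none of these 3 genes did the days overlap, in either direction. Mfge8, which encodes a bridge between dying cells and phagocytes, fell from 233 and 278 CPM to 129 CPM in both day 40 samples (-0.99 ± 0.15, edgeR adjusted p = 0.0138). PBS samples lay at 331 to 426 CPM, above all CBE samples. Mfge8 was the one of 26 homeostatic astrocyte genes to pass, and their median was -0.07 (-0.11 to -0.0097 over the alternative fits). Without day 34 replicate 2 it passed (adjusted p = 0.0350) and without day 40 replicate 6 it did not (0.0708).

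Oligodendrocyte genes included 2 of 29 that passed downwards and 0 upwards, against 0.404% and 0.261% of all genes. One of them was Car2, a carbonic anhydrase gene of oligodendrocytes, which went from 256 and 239 to 112 and 124 CPM (-1.06 ± 0.17, edgeR adjusted p = 0.0184), with PBS at 279 to 333. Mbp, which encodes myelin basic protein, did not pass. It measured 3037 and 1450.2 against 2370 and 2333 CPM (0.07, adjusted p = 0.945). The list median of -0.40 turned to 0.16 without day 34 replicate 2, which held 8619 CPM of the summed list against 4622 in its day 34 partner. Without day 34 replicate 3 it was -0.76. Oligodendrocyte precursor genes had 0 of 19 passing by edgeR or DESeq2, with 4 lower at an unadjusted p under 0.05 and a median of -0.41. That median was -0.24 without day 40 replicate 4 and -0.61 without replicate 6.

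Vascular genes moved in both directions. Among 21 endothelial genes Mfsd2a rose, as above, and Ly6a, which encodes Sca-1, fell from 120.2 and 119 to 29.8 and 69.5 CPM (-1.27 ± 0.27, edgeR adjusted p = 0.0442). Ly6a is induced by interferon. Its day 40 samples lay apart, replicate 4 below and replicate 6 above the PBS samples, which measured 51.3 to 63.0 CPM. The log2 fold change was -0.78 without replicate 4 and -2.01 without replicate 6. Slc2a1, the glucose transporter gene of the blood-brain barrier, measured 193 and 182 against 406 and 321 CPM (0.96, adjusted p = 0.0670). Of 15 mural and fibroblast genes 1 passed downwards, Vtn, which encodes vitronectin, from 172 and 183 to 90.7 and 114 CPM (-0.80 ± 0.16, edgeR adjusted p = 0.0325). The list median was -0.73, and it was -0.51 without day 40 replicate 4 and -1.14 without replicate 6. Ptgds, a gene of the meninges, measured 4716 and 4679.5 CPM at day 34 and 2324 and 5129.6 CPM at day 40, so that the day 40 samples lay on both sides of day 34. How the brain was dissected was not tested as a part of these values.

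Lists of neuronal genes held no gene that passed by edgeR, but with 0.665% of all genes passing, lists of this size would seldom hold one. Of 24 immediate early genes, which report recent neuronal firing, 0 passed by edgeR, while 8 were lower at an unadjusted p under 0.05 and DESeq2 called 2 lower. The median was -0.63, and it was -0.18 without day 34 replicate 2, -0.95 without day 34 replicate 3 and -0.40 without day 40 replicate 4. Arc, for example, measured 288 and 114 CPM at day 34 and 29.8 and 86.8 at day 40 (adjusted p = 0.137). For striatal neurons all 16 members had positive values, with a median of 1.98 that came to 0.05 without day 40 replicate 6, and 0 passed by edgeR or DESeq2, with 4 at an unadjusted p under 0.05. Ppp1r1b, which encodes DARPP-32, measured 111 and 92.8 CPM at day 34 and 238 and 1051 at day 40 (2.66 ± 0.96, adjusted p = 0.198). The mean of the striatal genes was thus high in day 40 replicate 6 and not in replicate 4 (6.92 and 4.32 on the log2 scale). Single members such as Ppp1r1b lay above day 34 in both, with a log2 fold change of 1.22 without replicate 6. In all, 7 of the 16 members were separated upwards, against 24.4% of all genes. The medians of pan-neuronal, synapse, excitatory and inhibitory neuron genes were -0.10, 0.05, -0.0031 and 0.23, with 0 genes passing by edgeR and 4, 4, 3 and 3 at an unadjusted p under 0.05. These lists have 18, 36, 15 and 17 tested members, and of all genes 7.56% were higher and 7.95% lower at that threshold, so the counts say little about neurons. DESeq2 called 0, 0, 2 and 1 of them. Over the alternative fits the medians ran from -0.20 to -0.08, -0.02 to 0.13, -0.12 to 0.21 and 0.11 to 0.33.

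Heat shock genes included 2 of 17 that passed downwards and 0 upwards, against 0.404% and 0.261% of all genes. Hsph1 encodes a large chaperone that exchanges nucleotide on Hsp70 (chromosome 5, 149614287 to 149636376) and went from 211 and 230.5 to 137 and 126 CPM (-0.75 ± 0.15, edgeR adjusted p = 0.0325). Hspa4, of the same chaperone family, went from 74.9 and 83.3 to 36.4 and 42.4 CPM (-1.004 ± 0.19, edgeR adjusted p = 0.0324). PBS samples lay higher than all CBE samples in both, at 341 to 358 and 91.9 to 121 CPM. The other 15 of 17 members did not pass, among them Hspa8 (-0.31, adjusted p = 0.299) and Hspa1a (-0.03, adjusted p = 0.977), and the median was -0.06 (-0.21 to 0.08 over the alternative fits). The promoter of Hsph1 (GRCm38.p6, chr5:149636287-149636586, minus strand, RefSeq) is shown as that of a textbook heat shock gene, with matches to the dyads GAANNTTC and TTCNNGAA in capitals. The last 2 of its 3 matches overlap.
Hsph1: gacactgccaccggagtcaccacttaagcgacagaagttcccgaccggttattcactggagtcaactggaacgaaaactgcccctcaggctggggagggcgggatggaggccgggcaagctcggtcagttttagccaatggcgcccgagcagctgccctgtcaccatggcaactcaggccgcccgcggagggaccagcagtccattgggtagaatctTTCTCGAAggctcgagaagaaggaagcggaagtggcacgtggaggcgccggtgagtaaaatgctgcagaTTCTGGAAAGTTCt
The dyads occur in 7.86% and 8.52% of all promoters, and in 8 and 3 of the 12 heat shock genes with a promoter in the table.

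Of the lysosomal, sphingolipid, cholesterol synthesis and cholesterol efflux lists, Hexa and Pltp were the genes that passed by edgeR. With 0.665% of all genes passing, lists of this size would seldom hold one, so these counts say little about the pathways. Ugcg, which encodes glucosylceramide synthase, measured 19.9 and 23.9 CPM at day 34 and 17.2 and 21.5 at day 40 (-0.18 ± 0.24, adjusted p = 0.776). Gba2, the gene of the non-lysosomal glucosylceramidase, measured -0.05 ± 0.19 on the log2 scale (adjusted p = 0.936). Of 40 sphingolipid genes 0 passed by edgeR or DESeq2, with 3 lower at an unadjusted p under 0.05 and a median of 0.06 (0.0023 to 0.14 over the alternative fits). Of 52 lysosomal genes 1 passed, Hexa, which encodes the α subunit of β-hexosaminidase, lower at 104 and 93.4 against 164 and 216 CPM (-0.94 ± 0.17, edgeR adjusted p = 0.0292). Its PBS samples lay at 94.1 to 106 CPM. In cholesterol synthesis 0 of 23 genes passed by edgeR or DESeq2, with 2 higher and 4 lower at an unadjusted p under 0.05. Hmgcs1 measured 158 and 172 against 128 and 126 CPM (-0.38 ± 0.19, adjusted p = 0.368), below the PBS range of 249.8 to 334 on both days. Pltp, which encodes phospholipid transfer protein, a target of the sterol receptor LXR, fell from 63.1 and 62.8 to 23.5 and 20.9 CPM (-1.50 ± 0.28, edgeR adjusted p = 0.0304). It overlaps Ctsa, a lysosomal gene at 0.12 on the log2 scale (adjusted p = 0.789).

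Further passing falls were found in Krt77, Pank1, Gypc, Msx1, Pcolce and Spry4. Several rested on few counts, with 32 at day 34 and 7 at day 40 for Krt77, 28 and 7 for Pank1, and 31 and 9 for Gypc. With counts thinned to the lowest total Krt77, Pank1, Gypc, Msx1 and Spry4 did not pass, and Pcolce did. Pank1, which encodes a kinase of coenzyme A synthesis, went from 7.54 and 7.78 to 1.40 and 0.993 CPM (-2.65 ± 0.51, edgeR adjusted p = 0.0324). Msx1, a homeobox gene, went from 19.9 and 15.6 to 3.15 and 4.64 CPM (-2.17 ± 0.44, edgeR adjusted p = 0.0373). Pcolce, which encodes an enhancer of procollagen processing, went from 25.9 and 23.3 to 4.90 and 8.28 CPM (-1.89 ± 0.37, edgeR adjusted p = 0.0324). Spry4, an inhibitor of growth factor signals, measured -1.88 ± 0.39 (edgeR adjusted p = 0.0416), Gypc -2.44 ± 0.49 (0.0374) and Krt77 -2.84 ± 0.58 (0.0388). P4ha1, a collagen hydroxylase gene of the hypoxia list, went from 32.3 and 36.1 to 11.6 and 18.2 CPM (-1.19 ± 0.25, edgeR adjusted p = 0.0415) and was the one of 18 hypoxia genes to pass. All of these had day 40 samples below every PBS sample.

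The remaining 43 passing genes lie outside the naming rule, and those named here were chosen after their values were seen. Pnpla2 encodes adipose triglyceride lipase and rose from 54.4 and 49.4 to 106 and 119.5 CPM (1.12 ± 0.19, edgeR adjusted p = 0.0197). Fam107a, which encodes an actin-binding protein raised by stress and glucocorticoids, went from 525 and 357 to 813 and 923 CPM (0.98 ± 0.20, edgeR adjusted p = 0.0415). Hopx, a gene of astrocytes and stem cells, fell from 202 and 240.5 to 93.1 and 60.3 CPM (-1.53 ± 0.25, edgeR adjusted p = 0.0184). Hes5, a Notch target of glial progenitors, fell from 38.3 and 52.8 to 12.3 and 14.9 CPM (-1.74 ± 0.37, edgeR adjusted p = 0.0474). Gamt, the gene of an enzyme of creatine synthesis, fell from 50.1 and 55.0 to 25.2 and 18.2 CPM (-1.28 ± 0.23, edgeR adjusted p = 0.0292). Oxct1, whose product lets brain cells burn ketone bodies, fell from 213 and 229 to 111 and 124 CPM (-0.91 ± 0.17, edgeR adjusted p = 0.0297). Padi2, an oligodendrocyte gene for the enzyme that citrullinates myelin basic protein, fell from 51.2 and 37.2 to 15.1 and 13.6 CPM (-1.63 ± 0.28, edgeR adjusted p = 0.0215). The day 40 values of Hopx, Hes5, Gamt, Oxct1 and Padi2 lay below all PBS samples, and those of Pnpla2 and Fam107a above them.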

How the data were processed

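Raw counts per gene symbol were used as deposited by the authors, with 16505 entries. The submitters' processing notes name HISAT 0.1.6, cutadapt, DESeq2 and HTSeq and the mm10 build, without roles. Annotation, strand and handling of molecular identifiers are not given by those notes or the labels. In these counts 23 entries carry a date for a name and entered neither library sizes nor tests (0.266 to 0.347% of each library). Genes were filtered with filterByExpr (minimum count 10), scaled by TMM and tested with edgeR 4.0.16 (R 4.3.3) in 1 fit of 12 samples in 4 groups. Benjamini-Hochberg adjusted p under 0.05 over all tested genes was called passing. CPM uses the TMM-scaled library size. Standard errors were taken from the fold change and its F statistic. The code was tested on simulated data.

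Named genes were the 12 largest rises and falls among passing genes, up to 4 passing members of each of 45 lists, the most abundant 2 of a list with none, and a short fixed set. Other genes named without passing were chosen after their values were seen. Members and lists were chosen with earlier results of these data known. Alternatives changed the scaling, filter, tool (DESeq2 1.42.0, limma-voom with limma 3.58.1), threshold, samples and covariates, and 3 (the striatal libraries, striatal level and Ttr) were added after seeing the data. Positions are those of GENCODE annotation on mm10, and promoters are RefSeq sequences of 250 bases before to 50 after the start. Some genes that the rule takes are not reported here.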

Additional observations from a re-analysis of the deposited data

Results flagged for a closer look

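In groups of 4, a single sample lay far from the other 3 in 10 of 116 groups of values examined, where chance gives about 1 in 20. All are samples of PBS or CBE+GZ-667161, since the 2 days of CBE hold too few samples for such a check. The summed striatal neuron genes measured 3317 CPM in PBS replicate 3, against 633 to 824 in the other PBS samples. They measured 3077.5 CPM in CBE+GZ-667161 replicate 3, against 540 to 869 in its group. Ttr measured 103 CPM in PBS replicate 5, against 11.3 to 20.6, and 329 CPM in CBE+GZ-667161 replicate 2, against 15.1 to 62.6. Among CBE+GZ-667161 samples, Gfap measured 600.5 CPM in replicate 5 against 281 to 289. Gm5914 measured 21.4 CPM in replicate 5 against 8.999 to 9.10, and Il4i1 2.73 CPM in replicate 2 against 5.23 to 5.63. Among PBS samples, H2-Eb1 measured 9.57 CPM in replicate 3 against 2.93 to 3.85. P4ha1 measured 31.5 CPM in replicate 3 against 43.4 to 44.0, and Hmgcs1 249.8 CPM in replicate 2 against 321 to 334.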

How the results depend on the processing

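The number of calls moved widely. The 2 days do not overlap in any gene that passed, so an unchanged direction in these fits shows no stability. Against 84 calls (33 higher, 51 lower), DESeq2 gave 240 (107 and 133), limma-voom 16 (9 and 7), a test against a 1.2-fold change 22 (12 and 10), and adjusted p under 0.01 6 (4 and 2). The 4 CBE samples alone gave 165 (77 and 88, 67 shared), the fit without the PBS group 35 (15 and 20), and counts thinned to the lowest total 55 (22 and 33). Without the 3 libraries highest in striatal genes edgeR called 5 (1 and 4), with 1 shared and 1612 genes at an unadjusted p under 0.05. With Ttr as a term it called 127 (52 and 75). Upper quartile scaling moved the share of higher calls from 39.3% to 31.8%. Leaving out 1 sample gave 0 to 104 calls, 0 to 41 higher and 0 to 63 lower, and without PBS replicate 4 there were 37. The cause of these shifts was not tested. No paired analysis was possible because the 2 days share no replicate number. The day 34 libraries were the shallowest, which limits genes of few counts.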
